A study of Mus musculus with 13 samples.

Results

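Plasma membrane amino acid transporters are described here in the liver of mice made diabetic with streptozotocin. The 10 genes were chosen by name, with earlier results of these data known. They were Slc3a1, Slc3a2, Slc7a1, Slc7a2, Slc38a2, Slc38a3, Slc38a4, Slc1a4, Slc43a1 and Slc6a12. All 10 were measured, each by 1 probe set, among 19938 genes that the platform annotation names singly. They were compared between 6 STZ livers and 7 control livers, with 1 Affymetrix mouse gene array per liver. All 13 mice were male, wild-type C57BL/6N animals of 5 to 6 months. Streptozotocin (STZ) is a glucose analogue that enters and kills pancreatic beta cells, the source of insulin. It was injected intraperitoneally at 65 mg/kg on 5 consecutive days into mice of 10 to 16 weeks, and controls were mock-injected with citrate buffer. Livers were taken 9 to 11 weeks afterwards, and the labels call the arrays of a group biological replicates. The series' design text mentions a standard diet for the controls.

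The liver takes up amino acids from portal blood for protein synthesis, gluconeogenesis and urea formation. Sodium-coupled carriers of the SLC38 family concentrate neutral amino acids in hepatocytes, SLC7 carriers move cationic amino acids or, paired with an SLC3 heavy chain, exchange larger neutral ones, and facilitated carriers of the SLC43 and SLC16 families let amino acids leave or enter down their gradients. Insulin, glucagon and amino acid supply are known to regulate several of these carriers.

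In STZ livers 4 of the 10 transporter genes rose and 0 fell at a Benjamini-Hochberg adjusted p under 0.05 in limma. Over all 19938 genes 5.09% rose and 4.04% fell by the same rule. All 10 were brighter than the median gene. Among only the genes brighter than the median gene, 5 of the 10 rose, and 1004 genes rose and 853 fell. The share called is therefore higher among such genes than over all genes. The 4 were both SLC3 heavy chains, Slc3a1 and Slc3a2, the cationic amino acid transporter Slc7a2 and the neutral amino acid exchanger Slc1a4, with increases of 1.38-fold to 1.53-fold. The median difference of the 10 genes was 0.29 on the log2 scale, against -0.00627 over all genes. At an unadjusted p under 0.05 there were 6 of the 10, against 4156 of the 19938. Because the 10 were chosen with earlier results known, these contrasts with all genes are descriptive only. Values are log2 signals after robust multi-array average (RMA), differences are STZ minus control with the standard error (SE) of the limma fit, and the level of one gene cannot be set against that of another on this scale.

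The promoters shown are those of genes that rose in STZ livers, although their patterns across the livers were not all alike. RefSeq sequences of the mouse build GRCm38.p6 were held for 8 of the 10 genes, in 15 windows, and for 3 of the 4 that rose. Each line gives the 250 bases before the gene's start, 5′ to 3′ on the gene's strand, and capitals mark every TATAAA and GGGCGG on either strand. Slc3a1 is at chr17:85028097-85028346 on the + strand, Slc3a2 at chr19:8713898-8714147 on the - strand and Slc1a4 at chr11:20332714-20332963 on the - strand.
Slc3a1: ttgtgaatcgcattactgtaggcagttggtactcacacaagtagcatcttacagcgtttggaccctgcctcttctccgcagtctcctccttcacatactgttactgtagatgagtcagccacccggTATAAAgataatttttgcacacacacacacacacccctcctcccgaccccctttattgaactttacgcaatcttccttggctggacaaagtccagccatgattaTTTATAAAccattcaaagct
Slc3a2: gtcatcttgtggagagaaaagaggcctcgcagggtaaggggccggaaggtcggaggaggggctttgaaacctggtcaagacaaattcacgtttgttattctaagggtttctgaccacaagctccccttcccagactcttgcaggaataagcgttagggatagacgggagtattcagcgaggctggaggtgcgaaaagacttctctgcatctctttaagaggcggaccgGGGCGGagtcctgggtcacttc
Slc1a4: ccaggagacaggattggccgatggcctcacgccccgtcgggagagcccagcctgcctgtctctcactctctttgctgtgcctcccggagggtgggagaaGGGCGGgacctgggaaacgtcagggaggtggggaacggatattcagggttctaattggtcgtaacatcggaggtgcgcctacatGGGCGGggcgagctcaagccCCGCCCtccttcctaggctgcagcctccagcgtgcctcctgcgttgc

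The 3 windows differed in base composition, with 45.6% G and C for Slc3a1, 53.6% for Slc3a2 and 64.8% for Slc1a4, against a median of 52.4% over all 32851 windows. Slc3a1 held TATAAA from 18 to 13 and from 124 to 119 bases before its start, the nearer one overlapping a match on the other strand, and no GGGCGG. Slc1a4 held 3 GC boxes (GGGCGG, either strand) and Slc3a2 held 1, from 22 to 17 bases before its start. Over all windows of the same length 12.4% held TATAAA and 32.7% held GGGCGG. The core of the C/EBP-ATF response element, TGATGNAA, by which amino acid shortage acts on several transporter genes, was in 0 of the 15 windows and in 3.45% of all windows. The FOXO motif GTAAACA, bound by factors that insulin restrains, was in 0 of the 15 and in 3.17% of all. Both were searched on both strands, and 0 of 15 says only that these letters are not in these windows.

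The heavy chains are single-pass glycoproteins that carry a light chain transporter to the cell surface. Slc3a2 encodes 4F2hc (CD98), the partner of several exchangers of large neutral, cationic and acidic amino acids. Its signal was lowest at 10.66, had a median of 10.96 and was highest at 11.14 in the 6 STZ livers, against a lowest value of 10.30, a median of 10.47 and a highest value of 10.52 in the 7 controls. All 6 STZ livers lay above all 7 controls, as did 2.30% of all genes. The groups averaged 10.92 ± 0.18 (SD, n = 6) in STZ livers and 10.43 ± 0.08 (SD, n = 7) in controls, a difference of 0.49 ± 0.07 (limma, adjusted p = 0.000423) or 1.40-fold, with a 95% interval of 1.26 to 1.56. By itself the difference had p = 0.000583 in an exact 2-sided permutation test over the 1716 splits of the arrays, the smallest value that test can give.

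Slc3a1 encodes rBAT, the heavy chain of the cystine and dibasic amino acid exchanger, known from kidney tubule and small intestine. In STZ livers its signal was lowest at 9.21, had a median of 9.79 and was highest at 10.26, against 9.03, 9.10 and 9.41 in controls. STZ livers 1, 2, 3, 4 and 6 lay above every control, while STZ liver 5, at 9.21, lay among the controls. The difference was 0.61 ± 0.12 (limma, adjusted p = 0.00455), or 1.53-fold with a 95% interval of 1.27 to 1.83, and the exact permutation p was 0.00233. In the exact rank-sum test its adjusted p was 0.0628. Markers of the kidney tubule, where Slc3a1 is best known, were called in 0 of 7 cases. Their summed linear signal spanned 1104 to 1445 in STZ livers and 1150 to 1327 in controls. Most of that sum came from Aqp1 (9.85 in STZ livers and 9.83 in controls), which was brighter than 91.5% of genes in these livers. The sum therefore says little about kidney RNA.

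Of the 8 light chain genes that pair with SLC3 heavy chains, looked up whatever their result, 1 rose and 0 fell, with a median difference of 0.03. The gene that rose was Slc7a8, a Slc3a2 partner that exchanges neutral amino acids (LAT2), at 7.53 ± 0.25 (SD, n = 6) in STZ livers and 7.16 ± 0.13 (SD, n = 7) in controls, a difference of 0.37 ± 0.10 (limma, adjusted p = 0.0235). Its adjusted p was over 0.05 without control 4 (0.0504), control 7 (0.0512), STZ liver 1 (0.0612), STZ liver 4 (0.0622) or STZ liver 6 (0.0550), with only STZ livers 1 to 4 (0.0915) and in the exact rank-sum test (0.122). Slc7a5, the leucine and aromatic amino acid exchanger LAT1, differed by 0.27 ± 0.09 (adjusted p = 0.0899). Leaving out 1 array gave adjusted p of 0.0276 to 0.199. It passed in 2 of 13 such fits, without STZ liver 1 (0.0276) or STZ liver 5 (0.0478), and in 1 of 10 other processing choices. Slc7a9, the light chain of Slc3a1 in kidney, differed by 0.03 ± 0.09 (adjusted p = 0.898). The differences of Slc7a6, Slc7a7, Slc7a10, the cystine and glutamate exchanger Slc7a11, and Slc7a13 lay between -0.09 and 0.06 and did not pass. All light chains but Slc7a5, Slc7a7 and Slc7a8 had mean signals below the median gene (6.65), where arrays compress differences.

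**Figure D1:**
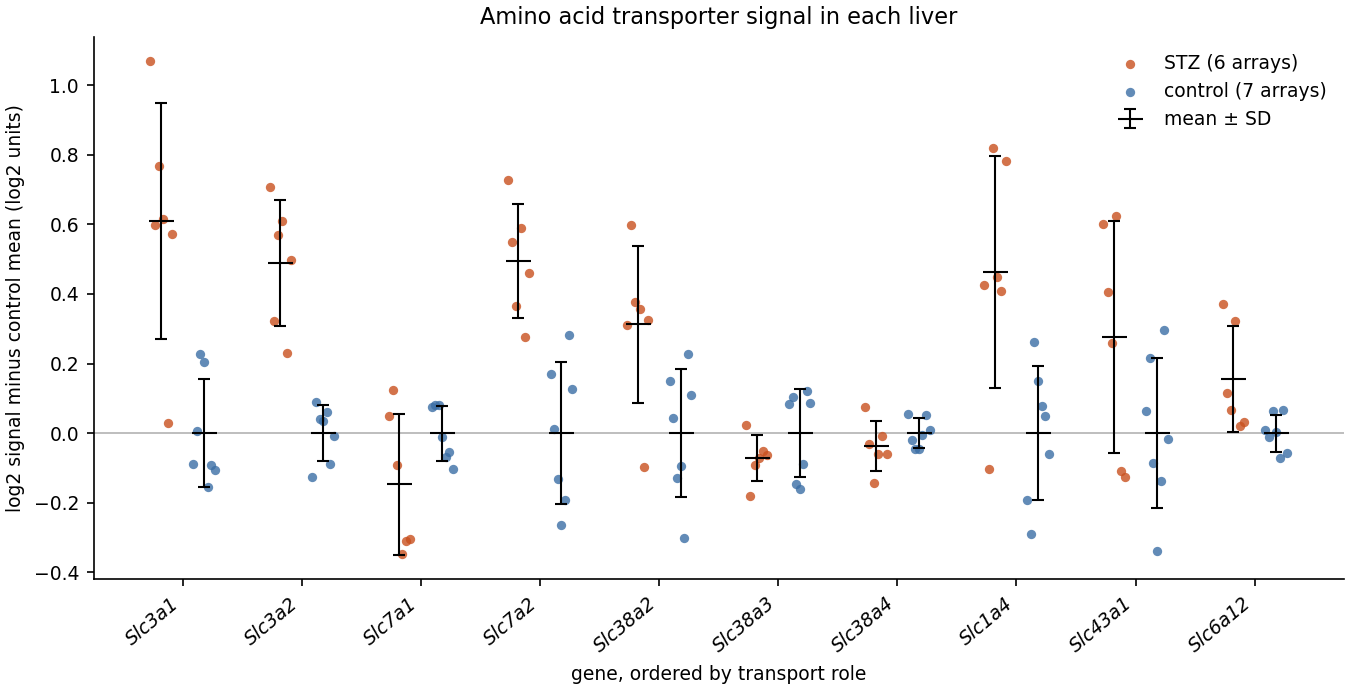
Log2 signal of the 10 transporter genes in each liver, minus the mean of the 7 controls for that gene (y axis, log2 units), with STZ livers (6 points) to the left of controls (7 points) and black bars for the mean ± SD. Slc3a2 is the gene whose 6 STZ points all lie above all 7 control points, while Slc38a3 and Slc38a4 overlap around 0.

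Of the 2 cationic amino acid transporters, Slc7a2 rose and Slc7a1 did not pass. Slc7a2 encodes CAT2, the carrier of arginine, lysine and ornithine whose low-affinity form is known from liver. Its signal in STZ livers was lowest at 11.989, had a median of 12.22 and was highest at 12.44, against 11.45, 11.72 and 11.993 in controls. STZ liver 5 lay just under the highest control, and the other 5 STZ livers lay above all controls. The difference was 0.49 ± 0.09 (limma, adjusted p = 0.00273), or 1.41-fold with a 95% interval of 1.23 to 1.62, and the exact permutation p was 0.00175.

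Slc7a1 encodes CAT1, the high-affinity cationic amino acid carrier of most other tissues. It was lowest at 6.53, had a median of 6.68 and was highest at 7.00 in STZ livers, against 6.77, 6.87 and 6.96 in controls. STZ livers 4, 5 and 6 lay below all controls and STZ liver 2 above all of them. The difference of -0.15 ± 0.08 did not pass (limma, adjusted p = 0.311), with a 95% interval of -0.31 to 0.02. Its signal was near that of the median gene, with 52.8% of genes dimmer.

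The sodium-coupled neutral amino acid transporters of the SLC38 family had 0 of 3 genes called. Slc38a2 encodes SNAT2, the system A carrier of alanine and other small neutral amino acids that responds to amino acid shortage. Its signal was lowest at 10.64, had a median of 11.07 and was highest at 11.33 in STZ livers, against 10.43, 10.78 and 10.96 in controls. STZ livers 1, 2, 3, 4 and 6 lay above all controls, and STZ liver 5 lay below the control median. The difference was 0.31 ± 0.10 (limma, adjusted p = 0.0663), or 1.24-fold, and the exact permutation p was 0.0227. Leaving out 1 array gave adjusted p of 0.00683 to 0.141, and 2 of 13 such fits passed. The difference was 0.39 without STZ liver 5 (adjusted p = 0.00683) and 0.35 without control 6 (adjusted p = 0.0485). Slc38a2 passed in 3 of 10 other processing choices, and its adjusted p was 0.161 in the exact rank-sum test.

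Slc38a3 encodes SNAT3, the system N carrier that moves glutamine, histidine and asparagine in hepatocytes. It was lowest at 12.94, had a median of 13.05 and was highest at 13.14 in STZ livers, against 12.96, 13.20 and 13.24 in controls. The groups overlapped, and the difference of -0.07 ± 0.06 did not pass (limma, adjusted p = 0.576), with a 95% interval of -0.20 to 0.06.

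Slc38a4 encodes SNAT4, a system A carrier found mainly in liver. It was lowest at 12.49, had a median of 12.59 and was highest at 12.71 in STZ livers, against 12.59, 12.63 and 12.69 in controls. STZ livers lay both above and below the controls, and the difference of -0.04 ± 0.05 did not pass (limma, adjusted p = 0.731), with a 95% interval of -0.14 to 0.06. The probe sets of Slc38a3 and Slc38a4 were brighter than 99.8% and 99.5% of genes. Whether signal this high is compressed on the array was not tested.

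Slc1a4 encodes ASCT1, a sodium-dependent exchanger of alanine, serine, cysteine and threonine. Its signal was lowest at 6.72, had a median of 7.26 and was highest at 7.64 in STZ livers, against 6.53, 6.87 and 7.08 in controls. STZ livers 1, 3, 4, 5 and 6 lay above all controls, and STZ liver 2, at 6.72, lay among them. The difference was 0.46 ± 0.13 (limma, adjusted p = 0.0302), or 1.38-fold with a 95% interval of 1.14 to 1.66, and the exact permutation p was 0.0117. This call was the least stable of the 4 when 1 array was left out. It was over 0.05 without control 1, 2 or 7 (adjusted p = 0.0652, 0.0619 and 0.0574) or without STZ liver 1, 3, 4 or 6 (0.0516, 0.0645, 0.0559 and 0.0748), at differences of 0.39 to 0.47, with only STZ livers 1 to 4 (0.0986) and in the exact rank-sum test (0.161). The other 3 calls held in 13 of 13 such fits.

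Slc43a1 encodes LAT3, a facilitated carrier of branched-chain and aromatic amino acids. It was lowest at 7.55, had a median of 8.01 and was highest at 8.30 in STZ livers, against 7.33, 7.66 and 7.97 in controls. STZ livers 1, 2 and 4 lay above all controls, while STZ livers 5 and 6 lay below the control median. The difference of 0.28 ± 0.13 did not pass (limma, adjusted p = 0.244), with a 95% interval of -0.00234 to 0.55. With only STZ livers 1 to 4, whose label numbers run consecutively, it was 0.47 (adjusted p = 0.0120). That was 1 of 10 other processing choices, and Slc43a1 passed in 0 of 13 fits that left out 1 array.

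Slc6a12 encodes BGT1, the betaine and GABA transporter, which serves osmolyte uptake and is a known target of the tonicity factor NFAT5. It was lowest at 10.85, had a median of 10.92 and was highest at 11.20 in STZ livers, against 10.76, 10.84 and 10.90 in controls. STZ livers 1 and 4 stood highest, and 4 of 6 lay above all controls. The difference of 0.15 ± 0.06 did not pass (limma, adjusted p = 0.161), and the exact permutation p of that gene alone was 0.0111. Of 7 other measured genes of the tonicity response 2 rose and 0 fell, with a median of 0.04. They were the taurine transporter Slc6a6 and the sphingomyelin phosphodiesterase Smpd2 (0.25 ± 0.06, limma adjusted p = 0.0144, and 0.0628 in the exact rank-sum test). Nfat5 itself (0.04 ± 0.07) and the inositol transporter Slc5a3 (0.02 ± 0.08) did not pass.

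**Figure D2:**
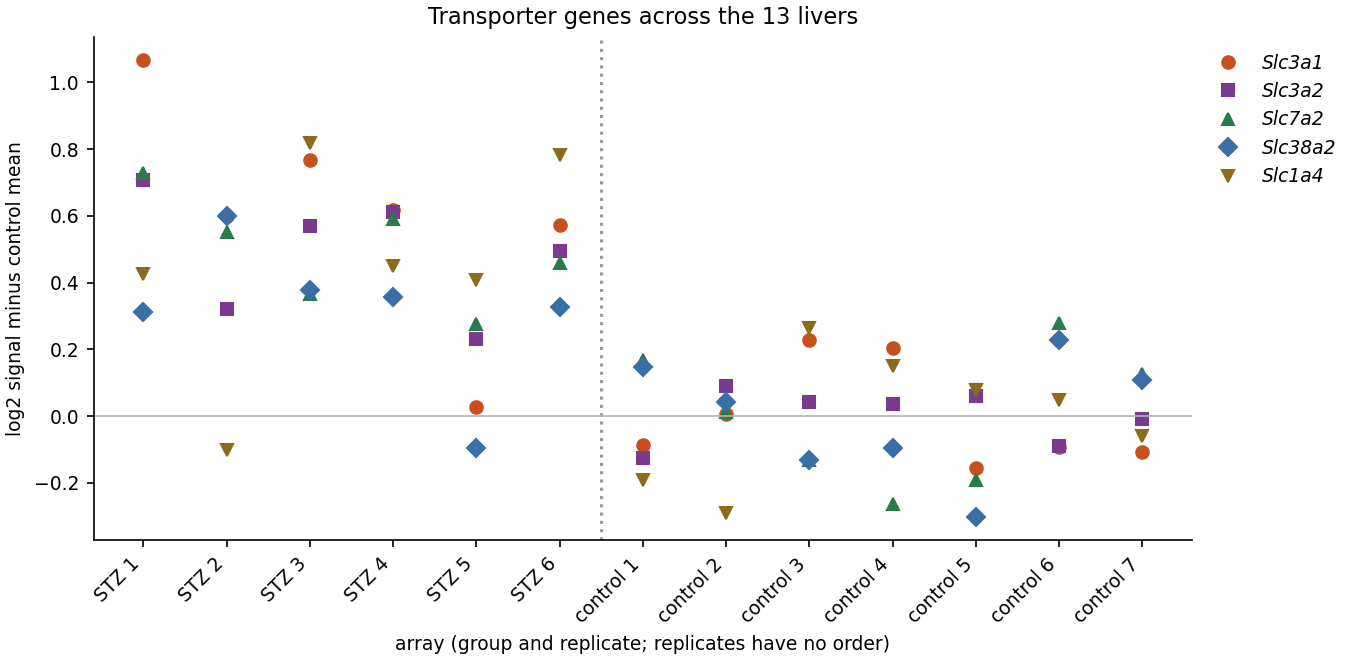
Log2 signal minus the control mean (y axis) of Slc3a1, Slc3a2, Slc7a2, Slc38a2 and Slc1a4 in each of the 6 STZ livers (left of the dotted line) and 7 controls (right). STZ liver 5 is the lowest STZ liver for Slc3a1, Slc3a2, Slc7a2 and Slc38a2, and STZ liver 2 is the lowest for Slc1a4.

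The 6 STZ livers were not alike across the transporters. STZ liver 5 was the lowest of the 6 for Slc3a1, Slc3a2, Slc7a2, Slc38a2 and Slc6a12, and STZ liver 1 was the highest for Slc3a1, Slc3a2, Slc7a2, Slc38a3, Slc38a4 and Slc6a12. Across all named genes STZ liver 5 also had the lowest median correlation with its own group, 0.989 against 0.991 to 0.994 for the other STZ livers and 0.994 to 0.995 for controls. These correlations are across genes, which are not independent replicates. Without STZ liver 5, 5 of the 10 transporters rose, Slc38a2 being the fifth, and 0 fell. Over all genes that fit called 1146 higher and 1022 lower, against 1014 and 805 with every array kept. The gain in calls was therefore not confined to the transporters. Among the controls, livers 3, 4 and 5 were the lowest for Slc7a2, Slc38a2, Slc38a3 and Slc43a1 and the highest for Slc1a4.

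The 35 other plasma membrane amino acid and related SLC transporters measured had 5 genes higher and 0 lower, with a median difference of 0.03. Slc16a10 encodes TAT1, a facilitated carrier of aromatic amino acids, and averaged 9.50 ± 0.27 (SD, n = 6) in STZ livers and 8.76 ± 0.08 (SD, n = 7) in controls, a difference of 0.74 ± 0.10 (limma, adjusted p = 0.000140). Slc6a8, which carries creatine and is an amino acid transporter only by family, averaged 7.28 ± 0.28 in STZ livers and 6.69 ± 0.14 in controls, a difference of 0.59 ± 0.11 (adjusted p = 0.00196). Slc6a6, the taurine transporter, averaged 10.34 ± 0.16 in STZ livers and 9.89 ± 0.08 in controls, a difference of 0.45 ± 0.07 (adjusted p = 0.000475). For these 3 genes all 6 STZ livers lay above all 7 controls. Slc1a2, the glutamate transporter of hepatocytes around the central vein, differed by 0.25 ± 0.06 (adjusted p = 0.0125), with 5 of 6 STZ livers above all controls. Slc7a8, the light chain, was the fifth.

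The largest negative difference in that list, singled out after its values were seen, was that of the glycine transporter Slc6a9, at 9.53 ± 0.51 (SD, n = 6) in STZ livers and 10.09 ± 0.21 (SD, n = 7) in controls. Its difference of -0.57 ± 0.18 did not pass (limma, adjusted p = 0.0562). Leaving out 1 array gave differences of -0.68 to -0.38 and adjusted p of 0.0182 to 0.106. It passed without STZ liver 3 (0.0182) or STZ liver 5 (0.0387), and the smallest difference was that without STZ liver 1 (adjusted p = 0.0599). With trend and robust variance the adjusted p was 0.117.

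**Figure D3:**
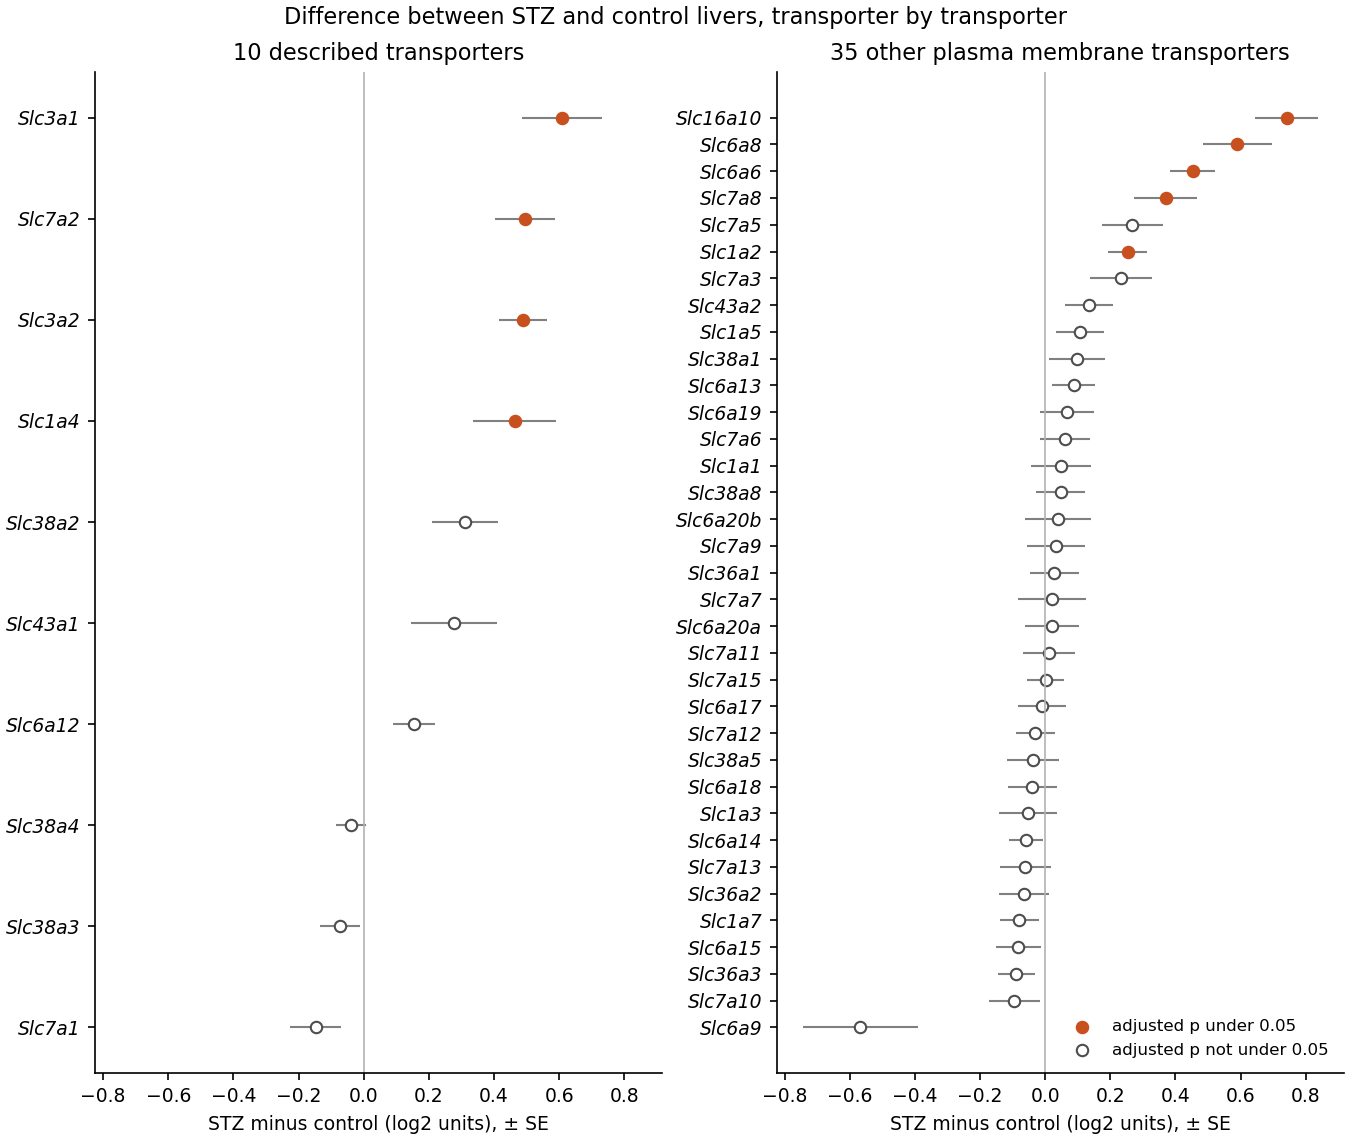
Difference of STZ minus control livers with its SE (x axis, log2 units) for the 10 transporters (left panel) and 35 other plasma membrane transporters (right panel), with filled points at an adjusted p under 0.05 over 19938 genes. The filled points, 4 at left and 5 at right, all lie to the right of 0.

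The amino acid response, in which the factor ATF4 raises transporters and synthesis enzymes when amino acids are short, was examined through 25 genes. Of these, 4 rose and 0 fell, with a median of 0.07. Among the 4 were the lipoprotein receptor Vldlr (1.31 ± 0.23, limma adjusted p = 0.00163) and the leucine sensor Sesn2 (0.89 ± 0.08, 3.90e-06). The others were the mTORC1 inhibitor Ddit4 (0.49 ± 0.10, 0.00464) and the pseudokinase Trib3 (0.41 ± 0.09, 0.00676). None of the 4 is an amino acid synthesis enzyme. The only amino acid transporter in this list was Slc7a11, a dim gene brighter than 12.6% of genes. Slc3a2, Slc1a4, Slc38a2 and Slc7a5 were not in the list. The list therefore cannot show whether transporters took part in such a response. In the exact rank-sum test Vldlr (0.122) and Ddit4 (0.0628) did not pass. Atf4 itself differed by 0.04 ± 0.07 (adjusted p = 0.830). Asparagine synthetase, Asns, an index gene of the response, was 9.39 ± 0.95 (SD, n = 6) in STZ livers and 9.19 ± 0.99 (SD, n = 7) in controls, so its spread within each group was larger than the difference between them.

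The genes whose pattern over the 13 arrays lay nearest to that of Slc3a1, which had the largest increase of the 10 transporters, were the estrogen receptor Esr1, the angiotensin receptor Agtr1a and the sphingosine phosphate receptor S1pr3. Their root mean square distances from the centred Slc3a1 profile were 0.16, 0.17 and 0.18 log2 units. Their own differences were 0.62 ± 0.10 for Esr1, 0.63 ± 0.06 for Agtr1a and 0.52 ± 0.09 for S1pr3. Differences like that of Slc3a1 follow from this choice by distance and are not a separate result.

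Whole liver was measured, so more cells of a type and more RNA per cell cannot be told apart. Hepatocyte markers were near the top of the signal range in all livers, with a summed linear signal of 81168 to 83238 in STZ livers and 80577 to 84748 in controls, and 2 of 10 were lower (Apoa1 and Ttr). Kupffer cell and macrophage markers had 5 of 10 genes higher, 9 of 10 at an unadjusted p under 0.05 and 10 of 10 with a positive difference, at a median of 0.38 on the log2 scale, and a summed signal of 6134 to 9996 in STZ livers and 5668 to 7461 in controls. Stellate cell markers had 1 gene higher (Dcn) and 1 lower (Lrat) of 7, with 4 positive and 3 negative differences and a median of 0.04. Their summed signal was 5278 to 6468 in STZ livers against 4805 to 5043 in controls. Most of that sum came from Dcn alone (11.99 in STZ livers and 11.64 in controls), so it does not speak for the list. Sinusoidal endothelial markers had 2 of 7 higher, with sums of 5256 to 5632 in STZ livers and 4863 to 5345 in controls, and bile duct markers 1 of 6 higher, with sums of 444 to 605 in STZ livers and 443 to 522 in controls. No value on this scale is 0, and the part of these cells in the transporter differences was not tested.

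**Figure D4:**
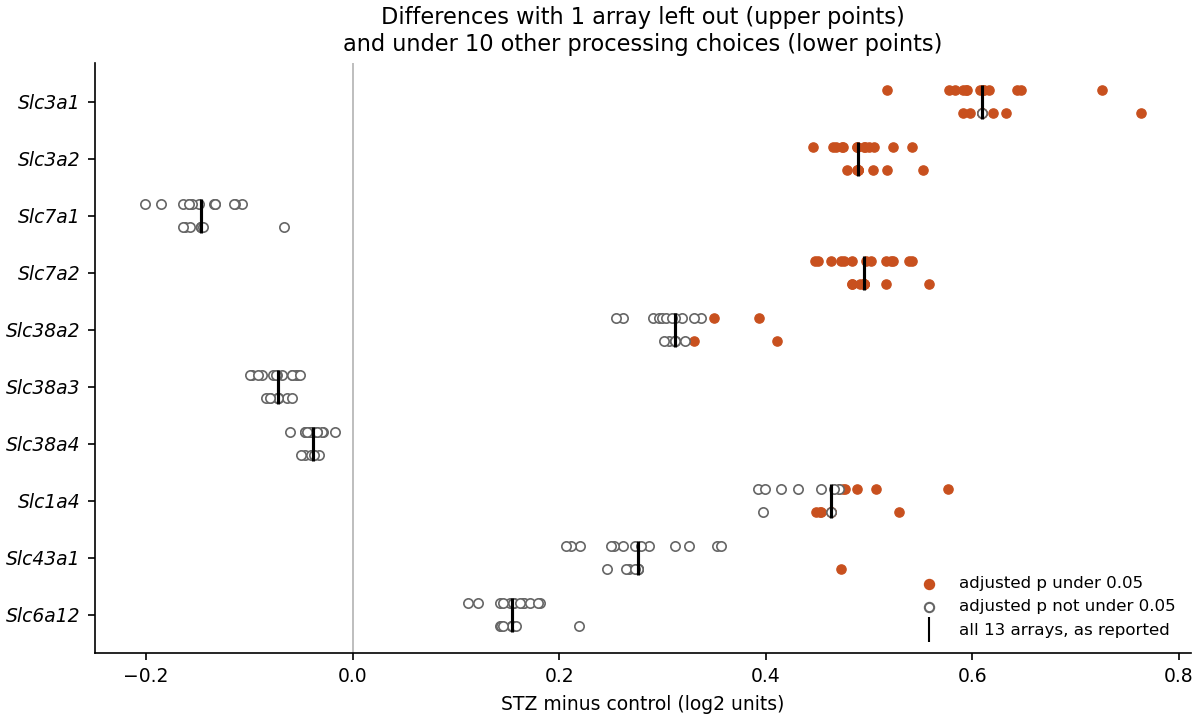
Difference of STZ minus control (x axis, log2 units) for each of the 10 transporters with 1 of the 13 arrays left out (upper points) and under 10 other processing choices (lower points), filled at an adjusted p under 0.05, with a black tick for the reported value. Slc3a2 and Slc7a2 are filled throughout, Slc3a1 in all but the exact rank-sum test, and Slc1a4 in part.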

How the data were processed

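Liver RNA of 6 STZ and 7 control mice was measured with 1 array each. For 35556 probe sets the authors deposited log2 intensities; the submitters' processing notes name RMA and Affymetrix Expression Console (version 1.2). RMA subtracts background, equalises the arrays' distributions and summarises probes, so a change in total RNA per cell is not seen. The build used upstream is not given in the sources used here. Array medians lay within 0.09 of each other. The platform annotation named 21789 probe sets singly, and the brightest per gene gave 19938 genes. STZ and control were compared with limma 3.58.1 in R 4.3.3 (lmFit, eBayes, Benjamini-Hochberg over all genes, threshold 0.05), with no filter on dim genes. The fit was also run on simulated arrays of independent normal values. Those meet the fit's assumptions, so that run cannot show how well the assumptions hold in these arrays. Members and gene lists were chosen with earlier results of these data known. Named are all members, the light chains, the passing genes of each list (up to 8) and the 3 genes nearest in pattern to the transporter with the largest increase among the 10. No depth exists for arrays, and their number limits the precision. No batch was given in the labels. Label numbers were 1 to 7 in controls and 29 to 32, 40 and 42 in STZ livers, with STZ liver 5 at 40. If they follow an order of processing, that order cannot be told apart from treatment.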

Additional observations from a re-analysis of the deposited data

Results flagged for a closer look

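Of 60 sets examined (30 genes in each group), 1 held an array far from the others, and chance gives about 1 in 20 such sets. The creatine transporter Slc6a8 was 7.82 in STZ liver 4 and 7.31 in the next highest STZ liver, a gap that took 0.647 of the range of the STZ livers. Without that array its difference was 0.48 and its call held.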

How the results depend on the processing

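The count of 4 transporters higher ranged from 3 to 5 when 1 array was left out. It was 2 (Slc3a2 and Slc7a2) in the exact rank-sum test, 5 with genes brighter than the median gene or with only STZ livers 1 to 4, and 4 under 6 other settings (trend and robust variance, array weights, mean of probe sets, all probe sets, repeated quantile normalization, median centring). The count lower was 0 in each. Over all genes tested, 1004 were higher and 853 lower among genes brighter than the median gene, and 1056 and 930 with only STZ livers 1 to 4. With those 4 livers Slc1a4 did not pass, while Slc38a2 and Slc43a1 did. The median difference of the 10 was 0.40 with only STZ livers 1 to 4. Of the 35 other transporters 1 was lower, Slc6a9, among genes brighter than the median gene and with array weights, and 0 to 1 when 1 array was left out. The titles number the replicates of both groups from 1. Deviations of same-numbered arrays had correlations of -0.09 to 0.19, and 1 of 6 STZ arrays correlated best with its own number. With so few arrays these values cannot exclude a pairing, and the main fit used none. With the number as a replicate block 5 transporters were higher, 0 lower, and Slc7a8 (adjusted p = 0.113) and Trib3 (0.0549) did not pass. Direction changed for light chains that did not pass: Slc7a7 was -0.0544 with STZ livers 1 to 4, -0.00533 with the block and -0.0333 to 0.114 with 1 array left out, Slc7a9 was -0.00633 with the block and -0.0123 to 0.0743 with 1 left out, and Slc7a11 was -0.0502 to 0.0768 with 1 left out. Over all genes the exact rank-sum test gave 623 higher and 465 lower, against 1014 and 805 in limma, and the block 732 and 524. The number of arrays and the missing detection calls limit dim genes.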

Other observations

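Transporters of lysosomes and other internal membranes had 2 of 12 genes higher and 0 lower, with a median difference of 0.00690 on the log2 scale. Both were carriers of histidine and small peptides. Slc15a3 averaged 7.82 ± 0.27 (SD, n = 6) in STZ livers and 7.36 ± 0.09 (SD, n = 7) in controls, a difference of 0.46 ± 0.10 (limma, adjusted p = 0.00660). Slc15a4 averaged 8.64 ± 0.15 in STZ livers and 8.30 ± 0.23 in controls, a difference of 0.34 ± 0.10 (adjusted p = 0.0393), and passed in 4 of 13 fits that left out 1 array. Both genes are known from macrophages, whose markers were higher in 5 of 10 cases, and the part of those cells was not tested. The cystine exporter Ctns (-0.05 ± 0.05) and the arginine sensor Slc38a9 (-0.00755 ± 0.0671) did not pass.

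Lymphocyte markers had 1 of 7 lower, adipocyte markers 1 of 4 lower, and pancreatic acinar markers 0 of 5 called, which was also 0 at an unadjusted p under 0.05.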
